A study of Mus musculus with 98 samples.

Results

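Medullary thymic epithelial cells (mTECs) of young mice were compared after sorting into mTEChi and mTEClo, 2 fractions named for the amount of maturation markers on the cell surface. The comparison used the bulk RNA-seq libraries labelled mTEChi (6) and mTEClo (6), which are 12 of the 98 samples of the study. The study examined the stroma of the mouse thymus, mainly its mesenchyme, in single cells and in sorted populations. All 12 libraries came from wild-type mice at 4 weeks of age, and the study's methods give C57BL/6 as its WT strain. Live CD45- cells were sorted, and RNA was sequenced with an ultra-low input protocol. The methods list antibodies to EpCAM, Ly51, CD80 and MHCII and the lectin UEA-1, but the gate that divides mTEChi from mTEClo and the number of cells per library are not given in the sources used here. Within each population 3 labels carry the prefix DFCK and 3 the prefix TXCK, whose meaning is not stated. The labels do not say whether libraries came from separate mice, so p-values measure the spread between these libraries, which may be technical.

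The thymic medulla is where developing T cells meet the body's own antigens before they leave the thymus. Mature mTECs express Aire and Fezf2, which drive the transcription of genes otherwise restricted to peripheral tissues, and they carry much MHC class II and CD80. The cells with little of these markers are a mixture known to hold immature mTECs that make the chemokine CCL21, and cells that have passed the Aire stage and resemble peripheral cell types such as tuft cells.

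The libraries held 12151673 to 14454727 counts in genes in mTEChi and 7518907 to 12023605 in mTEClo. Spearman correlations between libraries over the 15443 genes tested were 0.896 to 0.923 within mTEChi, 0.744 to 0.837 within mTEClo and 0.659 to 0.760 between them. The common biological coefficient of variation was 0.485 in mTEChi and 1.23 in mTEClo, so the mTEClo libraries differed more among themselves. Levels are given as CPM, the count of a gene relative to the library total after scaling with TMM factors, and sets of 3 values are the lowest, median and highest of 6 libraries. The TMM factors of mTEChi and mTEClo came from a run over these libraries alone. Levels of unfractionated mTEC and cortical TEC used factors from a separate run over all epithelial libraries of this age. Fold changes are log2, mTEChi over mTEClo, ± SE.

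Of the 15443 genes tested, 2537 (16.4%) passed an adjusted p of 0.05 in edgeR's quasi-likelihood test with Benjamini-Hochberg adjustment. Of these, 1573 (10.2% of genes tested) were higher in mTEChi and 964 (6.24%) higher in mTEClo, and with an absolute log2 fold change over 1 the numbers were 1288 (8.34%) and 694 (4.49%). Without a scaling factor beyond the library total the split turned to 1312 higher in mTEChi and 1474 higher in mTEClo, with a median shift of -0.192 over all genes. No gene called under TMM changed sign. All mTEChi libraries lay above all mTEClo libraries for 1881 genes (12.2%), and the reverse held for 572 (3.7%). The median fold change of all genes tested was 0.10. In bulk samples, fewer cells of a type and less RNA per cell cannot be told apart.

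**Figure D1:**
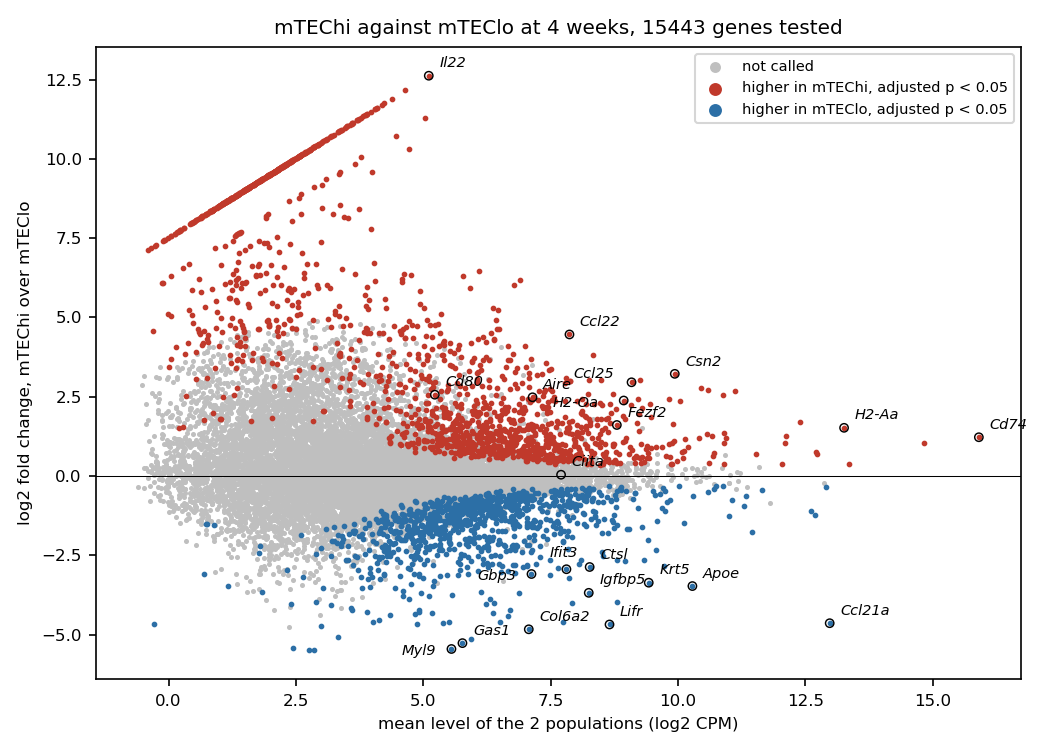
Log2 fold change of each of the 15443 genes tested (vertical axis) against its mean level in log2 CPM (horizontal axis), with 1573 genes higher in mTEChi in red, 964 higher in mTEClo in blue and the rest in gray. The straight upper edge is formed by the 394 called genes without a count in any mTEClo library, whose fitted fold change depends on the prior count of the fit.

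The sorted populations were first checked against the markers that such sorts use. Cd80, a costimulatory ligand, stood at 49.2, 62.2 and 75.6 CPM in mTEChi and at 2.20, 8.87 and 25.8 CPM in mTEClo. H2-Aa, a chain of MHC class II, had 13125, 14594 and 15789 CPM in mTEChi and 4555, 4781 and 6809 CPM in mTEClo. Both genes were higher in mTEChi without overlap, with fold changes of 2.56 ± 0.47 and 1.52 ± 0.10. H2-Ab1 (1.03) and H2-Eb1 (1.04) were called in the same direction. Epcam, the epithelial surface marker, had 631, 689 and 715 CPM in mTEChi and 645, 716 and 802 CPM in mTEClo and was not called. As the sort may rest on these proteins, the values are a check of the labels. Among 9 genes of thymic epithelial identity, 2 were called, both higher in mTEClo, and without mTEClo replicate 3, 1 member was higher in mTEChi. They were Krt18, a keratin of simple epithelia (-0.43 ± 0.10), and Eya1, a developmental cofactor (-1.55 ± 0.28). Foxn1, the master regulator of thymic epithelium, had 125.2, 157 and 177 CPM in mTEChi and 74.7, 124.6 and 143.4 CPM in mTEClo and was not called.

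The regulators of promiscuous gene expression differed in level. Aire had 212, 228 and 299.8 CPM in mTEChi and 14.7, 35.2 and 88.8 CPM in mTEClo. Every mTEChi library lay above every mTEClo library, with a fold change of 2.48 ± 0.42 (edgeR, adjusted p = 0.00086), and Aire was thus present in both fractions. Fezf2, which governs a further set of self-antigens, had 540.1, 699.7 and 748 CPM against 191.2, 221 and 248 CPM, a fold change of 1.61 ± 0.11 with no overlap. Of 15 regulators of mature mTECs, 5 were higher in mTEChi and 2 higher in mTEClo, with a median of -0.09. Irf8, an interferon regulatory factor (1.72 ± 0.16), Sirt1, a deacetylase (2.26 ± 0.38), and Dnmt3l, a cofactor of DNA methyltransferases (3.77 ± 1.19), completed the first group. Ets2, a transcription factor (-0.84 ± 0.20), and Chd4, a chromatin remodeler (-0.69 ± 0.21), made up the second. Dnmt3l, with 0 to 17.5 CPM in mTEClo, passed the filter through mTEChi, so its direction was set by the filter. Its call was lost when any mTEChi library or mTEClo replicate 1 or 4 was left out (adjusted p 0.063 to 0.0941). That of Chd4 was lost without any mTEChi library or mTEClo replicate 2, 3, 4 or 6 (0.053 to 0.0854), leaving 1 regulator higher in mTEClo in most of these fits. Of the list, 0 were higher in mTEClo in DFCK and 1 in TXCK libraries alone in edgeR.

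The difference in Aire was larger in the libraries prefixed DFCK. Aire averaged 18.5 CPM in the DFCK and 67.4 CPM in the TXCK libraries of mTEClo, and 257 and 223 CPM in those of mTEChi. The term for population by prefix was -2.07 (edgeR, adjusted p = 0.041). It passed for 81 of the 15443 genes (0.525%), 20 of them called between the populations. At an unadjusted p under 0.05 the term passed for 1889 genes, and a difference between the prefixes within mTEClo for 2914. Among the genes named here it also passed for Cd86 (-10.15), a costimulatory ligand without a count in the DFCK libraries of mTEClo, and for Cdh3 (1.97, adjusted p = 0.040), an adhesion molecule with 226 CPM in DFCK and 106 CPM in TXCK libraries of mTEClo. What the prefixes stand for was not tested.

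**Figure D2:**
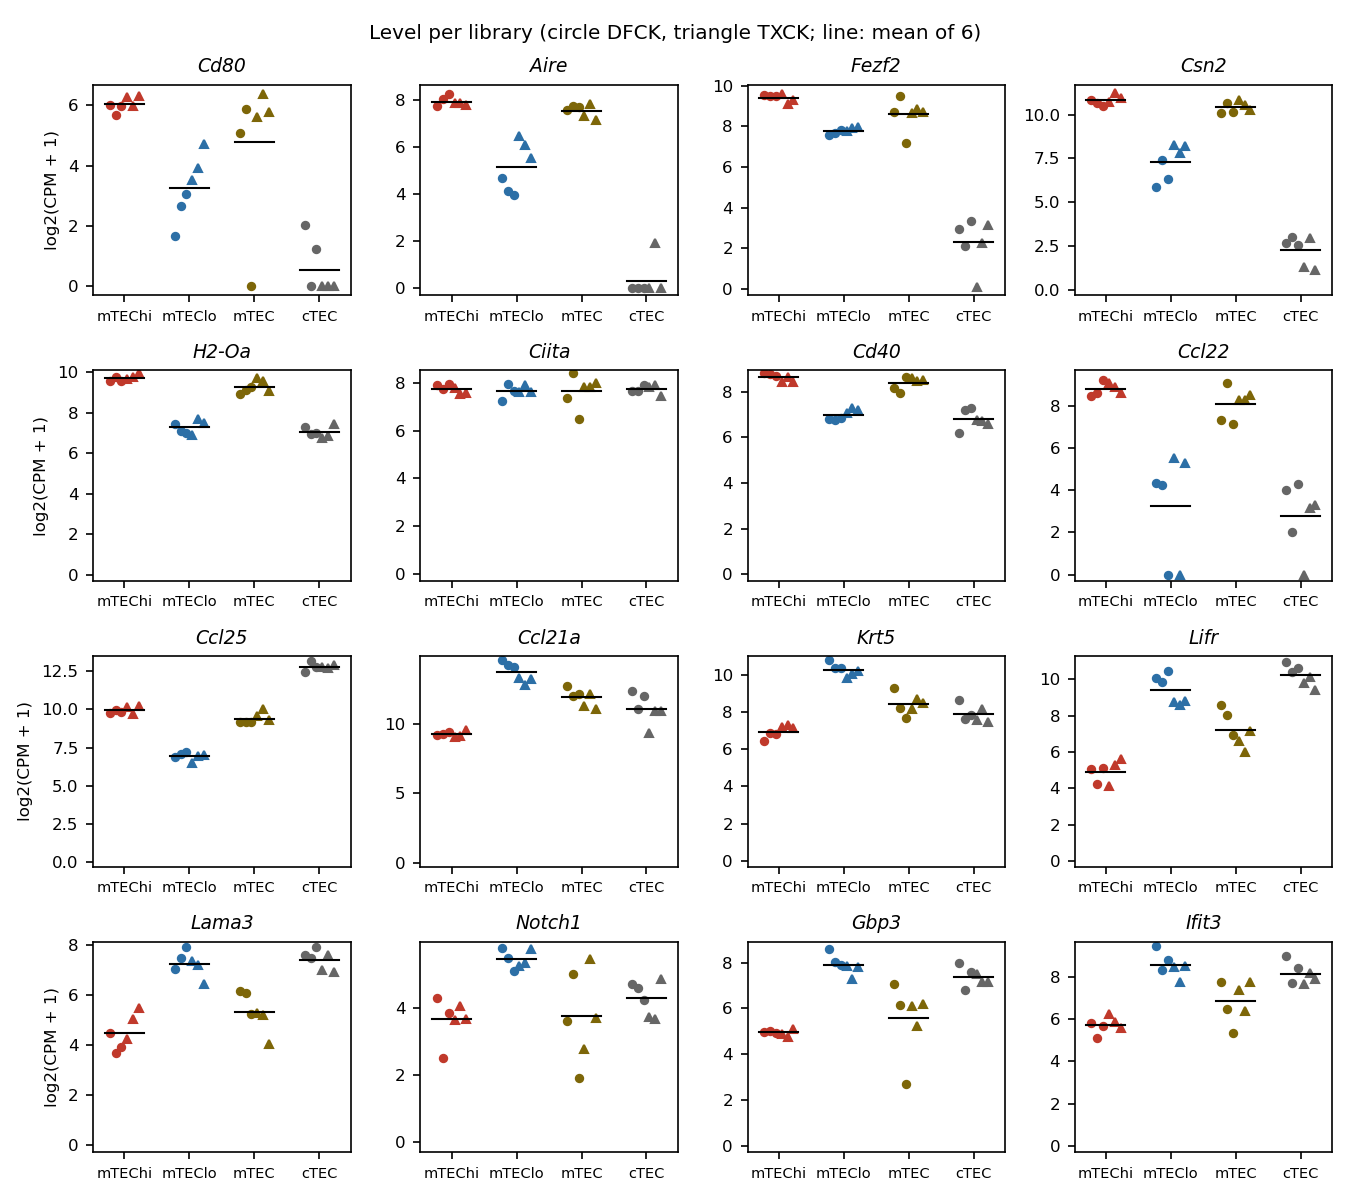
Level of 16 genes as log2(CPM + 1) in each library of mTEChi, mTEClo, unfractionated mTEC and cortical TEC (cTEC) at 4 weeks, with circles for DFCK and triangles for TXCK libraries and a line at the mean of 6. Levels here use TMM factors from the run over all epithelial libraries, so they can differ from the CPM in the text. Cd80, Aire, Fezf2, Csn2, H2-Oa, Cd40, Ccl22 and Ccl25 lie higher in mTEChi, Ccl21a, Krt5, Lifr, Lama3, Notch1, Gbp3 and Ifit3 lie higher in mTEClo, and Ciita overlaps.

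Several genes known from peripheral tissues were higher in mTEChi. Milk casein Csn2 had 1414, 1725 and 2297 CPM in mTEChi and 57.8, 197 and 308 CPM in mTEClo, without overlap, a fold change of 3.22 ± 0.39. Of 26 tissue-restricted antigens 19 passed the filter, of which 7 were higher in mTEChi and 1 higher in mTEClo, and the other 7 were too low to test or had no row. A gene absent from one fraction can pass the filter only through the other, so the count covers members that passed, and their median carries no weight. The 7 were Csn2, Csn1s1, Ins2, Ppy, Fabp9, Calb1 and Amelx. Pancreatic polypeptide Ppy (4.01 ± 0.91) and the testis fatty acid binding protein Fabp9 (3.06 ± 0.54) were called with no overlap. Ppy had an mTEClo library without a count, so it could not pass the filter through mTEClo alone. Insulin gene Ins2 had 2.07, 4.80 and 7.85 CPM in mTEChi and 0, 0.0769 and 0.998 CPM in mTEClo, so that it too passed the filter through mTEChi. Csn1s1, a further casein, had no count in mTEClo and was at least 232-fold higher in mTEChi, taking a floor of 3 counts over the group. Calbindin gene Calb1 was higher in mTEChi as well (2.07 ± 0.42). The call of Amelx, an enamel protein, was lost without any mTEChi library or mTEClo replicate 2 (adjusted p 0.0546 to 0.0656). The member higher in mTEClo was Crp, a liver acute-phase protein (-1.49 ± 0.31). In TXCK libraries alone 4 members were higher in mTEChi and 0 higher in mTEClo in edgeR, and DESeq2 and limma called 13 and 16 higher in mTEChi.

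The 15 genes with the largest fold change toward mTEChi by the rule used had no count in any mTEClo library. They were Il22, Il5, H2-M10.5, P2ry12, Psg23, Mogat2, Aipl1, Alpl, Bhmt, Crh, Rhox12, Gphb5, Il12b, Zp3 and Fcna. The cytokine gene Il22 led with 12.99, 79.6 and 111 CPM. Against the floor of 3 counts it was at least 1441-fold higher, and Il5 at least 1064-fold. Fcna, a ficolin of plasma and the last of the 15, was at least 614-fold higher. The floor leaves out the spread between libraries, so these folds are not strict lower limits. Other members are known from the egg coat (Zp3), the retina (Aipl1), the hypothalamus (Crh) and microglia (P2ry12). Psg23 and H2-M10.5 belong to families of similar sequence, where the split of reads is uncertain. In all, 394 genes tested (2.55%) had no count in mTEClo and 0 had none in mTEChi. Such a gene passes the filter through mTEChi alone, so its direction was set by the filter.

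Genes of gut and liver were also higher in mTEChi. Of 17 enterocyte and hepatocyte genes 14 were tested, and 8 were higher in mTEChi and 0 higher in mTEClo. Cdx1, an intestinal transcription factor, had 519, 609 and 638 CPM in mTEChi and 40.4, 190.3 and 310.2 CPM in mTEClo, without overlap (1.78 ± 0.43). Apolipoprotein gene Apoa4 had 122.4, 299 and 421 CPM against 24.2, 39.8 and 76.0 CPM (2.65 ± 0.35). Lypd8, a protein of the colonic surface (2.38 ± 0.41), was also higher. Albumin gene Alb had no count in mTEClo and was at least 143.5-fold higher. Apoa1 (1.90 ± 0.50) and Apoc3 (2.38 ± 0.69), apolipoprotein genes, and Vil1, of the brush border (1.75 ± 0.53), were called too. Apoc3 lost its call without mTEChi replicate 2, 3, 4, 5 or 6 (adjusted p 0.0512 to 0.0703), and Vil1 without any of these or mTEClo replicate 1, 2, 3, 4 or 5 (0.0513 to 0.0836). Of 18 genes of ionocytes, goblet cells and lung, 15 were tested and 3 were higher in mTEChi. These were Foxa2, a transcription factor of endoderm (at least 142.9-fold), Atp6v0d2, a proton pump subunit (at least 188-fold), and Sftpb, a lung surfactant protein, with 0, 0 and 1.498 CPM in mTEClo. All of these, like Alb, were at or near 0 in mTEClo and passed the filter through mTEChi, so their direction was set by the filter. Sftpb lost its call without any mTEChi library or mTEClo replicate 1 or 5 (adjusted p 0.0509 to 0.0666), and 5 members were higher in mTEChi in DFCK libraries alone and 7 in limma voom.

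More genes were detected in mTEChi at the same depth. After thinning each library to 7518907 counts, mTEChi libraries had 19351, 19816 and 20401 genes with at least 1 count and mTEClo libraries 13940, 14665 and 15162. The groups did not overlap (exact permutation test over libraries, two-sided, p = 0.0022, the smallest this design allows, and 0.0029 adjusted over 4 measures). The 100 most abundant genes held 32.5 to 33.9% of counts in mTEChi and 28.2 to 31.4% in mTEClo (p = 0.0022, exact permutation test, adjusted 0.0029). Mitochondrial counts made up 0.541 to 0.839% in mTEChi and 0.867 to 1.93% in mTEClo (p = 0.0022, exact permutation test, adjusted 0.0029). Ribosomal protein genes made up 0.510 to 0.722% and 0.689 to 0.971% (p = 0.0043, exact permutation test, adjusted 0.0043). The mitochondrial share moved with the groups, and its part in the other differences was not tested. Thinning equalizes reads and not the RNA put in, and the cells per library are not given. The part of RNA input in the genes detected, and in the genes without a count in mTEClo, was not tested.

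**Figure D3:**
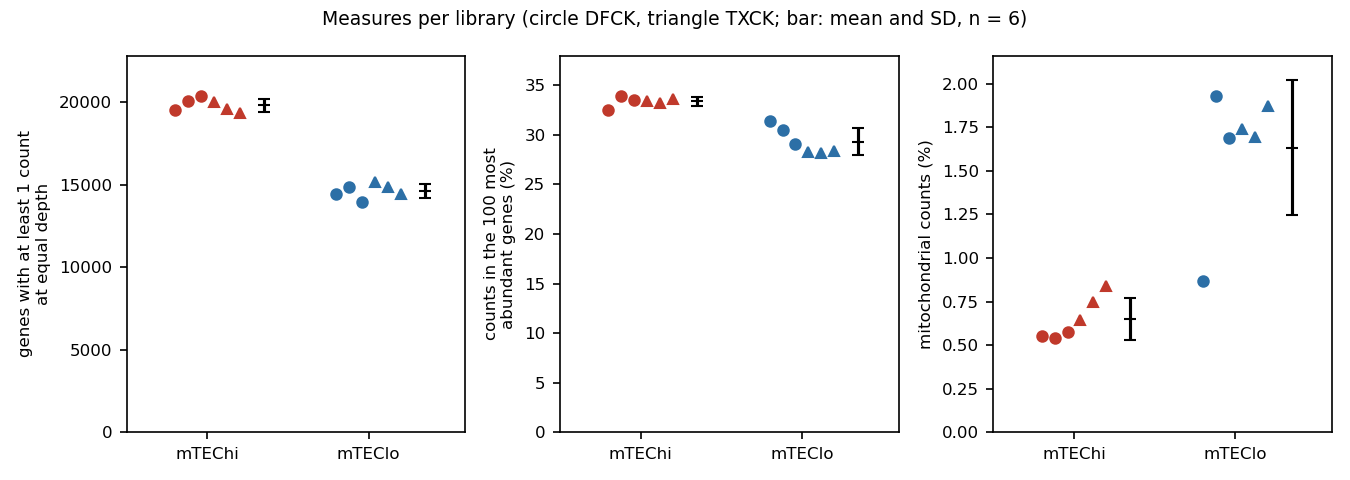
Genes with at least 1 count after thinning to equal depth, percent of counts in the 100 most abundant genes and percent of mitochondrial counts in each of 12 libraries, with circles for DFCK and triangles for TXCK and bars for mean and SD (n = 6). Genes at equal depth number 19351 to 20401 in mTEChi and 13940 to 15162 in mTEClo.

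Most genes of MHC class II presentation were higher in mTEChi. Of 17 genes, 11 were higher in mTEChi and 1 higher in mTEClo, with a median of 1.03. The 11 include H2-Aa, H2-Ab1 and H2-Eb1, whose direction the sort may have set. The invariant chain Cd74 had 77748, 86945 and 91040.4 CPM in mTEChi and 32295, 36915 and 43032 CPM in mTEClo, without overlap (1.22 ± 0.08). H2-Oa and H2-Ob, which temper peptide loading, had the largest folds of the class II chains (2.38 ± 0.15 and 2.31 ± 0.41), and the subunits of a loading catalyst had 0.71 ± 0.11 (H2-DMa), 1.001 ± 0.14 (H2-DMb1) and 1.21 ± 0.11 (H2-DMb2). Ctss, a lysosomal protease of medullary cells, had 697, 775 and 835 CPM against 78.7, 208 and 405 CPM (1.79 ± 0.32), and Ifi30, a thiol reductase, had 1.27 ± 0.28. Ctsl, the related protease of cortical cells, ran the other way with 45.98, 78.4 and 89.7 CPM in mTEChi and 324, 537 and 758 CPM in mTEClo (-2.87 ± 0.26). The class II transactivator Ciita had 177, 213 and 245 CPM in mTEChi and 153, 201 and 248 CPM in mTEClo, so the groups overlapped. Its fold change of 0.04 ± 0.13 was not called (edgeR, adjusted p = 0.9), and its sign turned when the scaling factor was left out (-0.15), in TXCK libraries alone (-0.12), and without mTEChi replicate 3 (-0.0046) or mTEClo replicate 1 (-0.036).

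Stretches of 4 class II promoters are shown because these genes differed together. Capitals mark GATTGG on either strand, the core of the Y box bound by NF-Y. The 100 bases lie within the 250 before the RefSeq start (GRCm38.p6) and run 5′ to 3′ with the gene.
H2-Aa (chr17:34287824-34287923, minus strand): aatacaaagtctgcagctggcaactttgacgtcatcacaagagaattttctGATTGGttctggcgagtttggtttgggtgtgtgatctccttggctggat
H2-Eb1 (chr17:34305760-34305859, plus strand): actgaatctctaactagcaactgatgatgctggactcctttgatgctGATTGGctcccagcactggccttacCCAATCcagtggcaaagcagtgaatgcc
H2-Oa (chr17:34092279-34092378, plus strand): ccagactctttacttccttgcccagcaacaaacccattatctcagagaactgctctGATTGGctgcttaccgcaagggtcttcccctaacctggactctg
H2-DMb2 (chr17:34145111-34145210, plus strand): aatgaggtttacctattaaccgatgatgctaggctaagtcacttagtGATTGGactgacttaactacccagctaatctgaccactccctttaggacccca
In the 250 bases before the start, 9 of the 13 class II list members with a RefSeq promoter held these letters, against 16.6% of 27025 genes and 21.4% of the tested genes matched. The holders Rfx5 and Rfxank were not called, and the called genes Ctss, Ifi30 and Ctsl did not hold the letters. A match is a description of the sequence and not a binding site.

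Costimulatory genes were higher in mTEChi. Of 12 genes 10 were tested, 7 were higher in mTEChi and 0 higher in mTEClo. Cd40, the receptor for the T cell ligand CD40L, had 332, 399 and 442 CPM against 106, 123.7 and 155.8 CPM without overlap (1.602 ± 0.13). Cd83 (2.76 ± 0.49), which stabilizes MHC class II at the surface, and the TNF family ligands Cd70 (2.17 ± 0.31) and Tnfsf9 (3.06 ± 0.82) were called as well. Tnfsf9 had an mTEClo library without a count and could not pass the filter through mTEClo alone. The PD-1 ligands Cd274 (0.78 ± 0.21) and Pdcd1lg2 (0.88 ± 0.24) completed the group with Cd80, whose direction the sort may have set. Cd274 lost its call without mTEChi replicate 5 or 6 (adjusted p 0.0535 to 0.0539), and Pdcd1lg2 without mTEChi replicate 2 or 5 (0.0534 to 0.0556). Cd86 had 50.5, 57.7 and 76.4 CPM in mTEChi and 0, 3.12 and 27.5 CPM in mTEClo. Its libraries did not overlap, yet it was not called (edgeR, adjusted p = 0.13), and it had no count in the DFCK libraries of mTEClo.

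For MHC class I presentation, 8 of 15 genes were higher in mTEChi and 0 higher in mTEClo, with a median of 0.37. The folds of the 8 lay between 0.37 and 0.93. B2m, the light chain, had 0.68 ± 0.09, the chaperone Calr 0.75 ± 0.11, the tapasin gene Tapbp 0.64 ± 0.11 and the proteasome activator Psme2 0.93 ± 0.10. The heavy chain H2-D1 (0.37), the immunoproteasome subunit Psmb8 (0.68), Psme1 (0.64) and the disulfide isomerase Pdia3 (0.42) were the others. The count was 5 in the DFCK libraries alone and 5 without a scaling factor, where 1 member was higher in mTEClo.

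The pathways downstream of RANK and CD40 had 7 of 19 genes higher in mTEChi and 1 higher in mTEClo. Relb, the NF-kB subunit needed for mTECs, had 218, 244 and 264 CPM against 61.8, 97.9 and 129 CPM (1.26 ± 0.17), and the inhibitor Nfkbia had 1.33 ± 0.12. Tnfrsf11b, the decoy receptor for RANK ligand, had 974, 1095 and 1256 CPM in mTEChi and 67.5, 359 and 515 CPM in mTEClo, without overlap (1.85 ± 0.38). Birc3 (1.04 ± 0.20) and Traf1 (2.31 ± 0.52), adaptors of TNF receptors, were higher in mTEChi. Cd40 and the subunit Nfkb2 (0.50 ± 0.16) made up the 7, and Nfkb2 lost its call without any of 9 libraries, mTEChi replicates 2 to 6 and mTEClo replicates 1, 3, 4 and 6 (adjusted p 0.0766 to 0.102). RANK itself, Tnfrsf11a, was not called (0.63 ± 0.31). Ltbr, the lymphotoxin receptor, was the member higher in mTEClo (-1.53 ± 0.44), a call lost without mTEChi replicate 3 or 6 or mTEClo replicate 1 or 5 (adjusted p 0.0528 to 0.0674). In single left-out fits the number of members higher in mTEClo was 0 without either of these mTEChi libraries, 3 without mTEClo replicate 4, and 2 without mTEClo replicate 5 or 6. In DFCK libraries alone 4 members were higher in mTEChi.

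Chemokines divided between the fractions. Of 23 chemokines and cytokines 21 were tested, with 9 higher in mTEChi and 3 higher in mTEClo. Ccl21a, which draws thymocytes into the medulla and has near-identical copies, had 543, 607 and 737 CPM in mTEChi and 7324, 14439 and 26239 CPM in mTEClo. All mTEClo libraries lay far above all mTEChi libraries (-4.64 ± 0.31, edgeR, adjusted p = 1.9e-06). Ccl19, a ligand of the same receptor, ran the other way with 319, 365 and 437 CPM in mTEChi and 60.3, 67.8 and 102 CPM in mTEClo (2.36 ± 0.16). Ccl25, a ligand of CCR9 on thymocytes, had 812, 923.6 and 1172 CPM against 90.2, 127.1 and 150.3 CPM (2.95 ± 0.14). Its mean was higher in cTEC (7218 CPM). Ccl22 (4.46 ± 1.03), which acts through CCR4, Ccl5 (4.10 ± 0.30), Cxcl9 (2.18 ± 0.19), Cxcl10 (1.37 ± 0.35) and the B cell attractant Cxcl13 (3.15 ± 0.75) were higher in mTEChi. So were Ccl17, a further ligand of CCR4 (4.35 ± 1.28), and Ccl2 (2.93 ± 0.81). Ccl17 was at or near 0 in mTEClo (0, 0 and 0.874 CPM) and passed the filter through mTEChi, so its direction was set by the filter. Ccl22 and Ccl2 each had an mTEClo library without a count and could not pass the filter through mTEClo alone. Ccl17 lost its call without any mTEChi library (adjusted p 0.0539 to 0.0619), and Ccl2 without mTEChi replicate 6 (0.0578). Cxcl12, the ligand of CXCR4, was higher in mTEClo (-2.57 ± 0.34), as was the T cell growth factor Il7, with 72.1, 92.95 and 111 CPM in mTEChi and 212, 312 and 422 CPM in mTEClo (-1.79 ± 0.19). In TXCK libraries alone 5 members were higher in mTEChi.

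**Figure D4:**
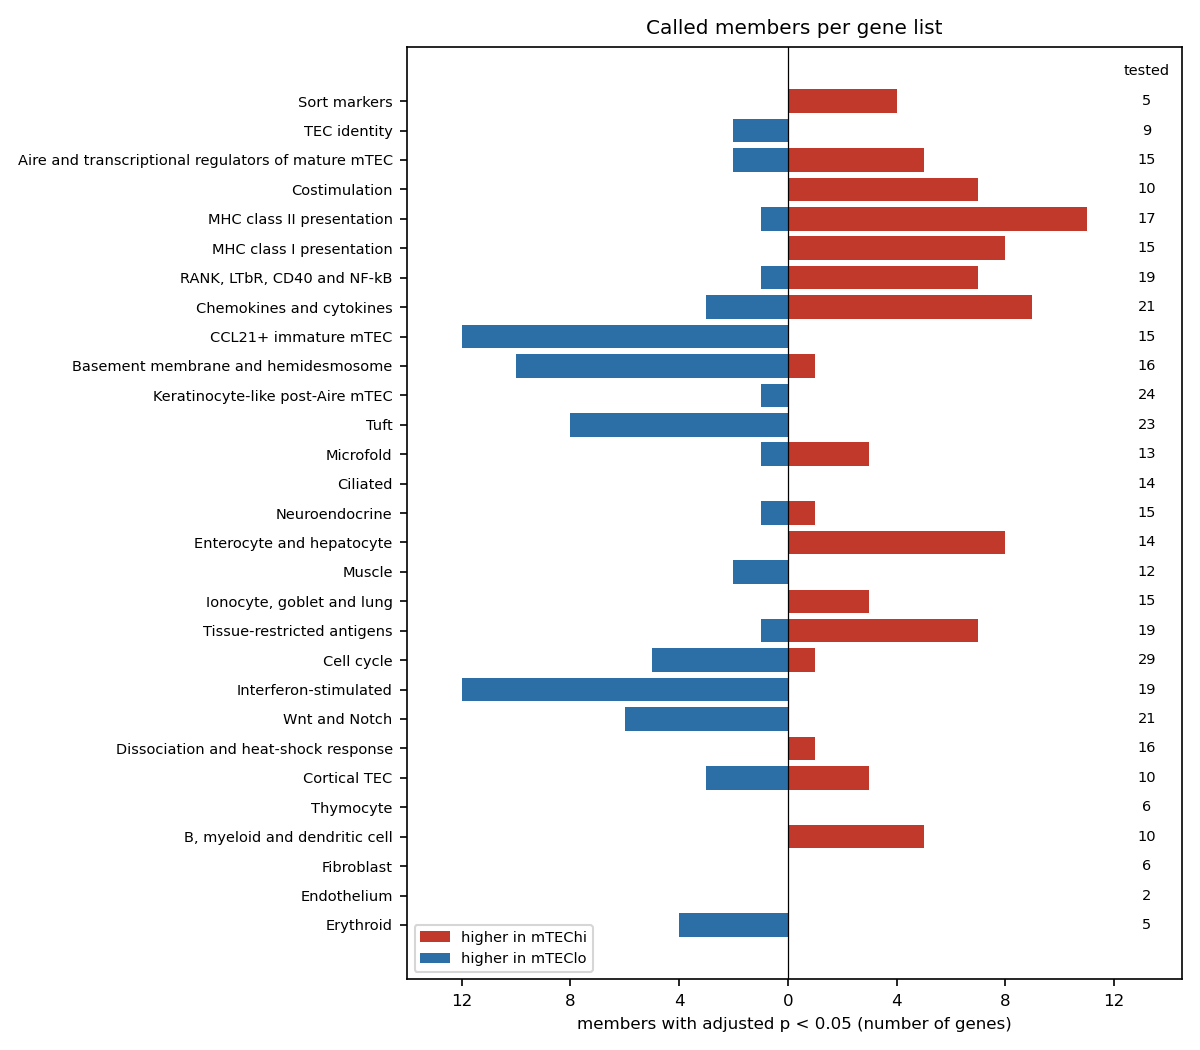
Number of members of each gene list called higher in mTEChi (red, to the right) or higher in mTEClo (blue, to the left), with the number tested in the column at the right. The background is 10.2% of genes tested for mTEChi and 6.24% for mTEClo.

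Genes of CCL21+ immature mTECs were higher in mTEClo. All 15 were tested, and 12 were higher in mTEClo and 0 higher in mTEChi, with a median of -2.20. Krt5, a keratin of basal epithelium, had 84.0, 123 and 151.3 CPM in mTEChi and 909, 1247 and 1757 CPM in mTEClo, without overlap (-3.37 ± 0.19). Lifr, a receptor of the IL-6 family, had 16.4, 32.4 and 46.4 CPM against 377, 678 and 1407 CPM (-4.68 ± 0.42). The partner keratin Krt14 (-2.03 ± 0.21), the surface protein Pdpn (-2.78 ± 0.24), the lipid carrier Apoe (-3.47 ± 0.27) and Igfbp5, which binds insulin-like growth factors (-3.69 ± 0.25), ran with them. Krt17 had a smaller difference (-0.94 ± 0.13). Krt15, a further basal keratin of the list, was not called, with 64.8, 84.5 and 123 CPM in mTEChi and 7.74, 29.4 and 133.8 CPM in mTEClo and overlapping libraries (0.90 ± 0.58). Ackr4, a scavenging receptor for chemokines, had -2.80 ± 0.65. The transcription factors Sox4 (-2.19 ± 0.18) and Trp63, needed for basal epithelium (-1.74 ± 0.30), were higher in mTEClo too, though the libraries of Trp63 overlapped. Without mTEClo replicate 5, and in DFCK libraries alone, 1 member was higher in mTEChi, which was Krt15 (1.57 and 1.94).

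The 15 largest differences toward mTEClo were Myl9, Gpr139, Gas1, Boc, 4933439K11Rik, Col6a2, Mgp, Lifr, Irak3, Ccl21a, Fst, Synm, Col6a1, Slc27a3 and Tagln. Myl9, a myosin light chain of contractile cells, had 0, 1.86 and 6.08 CPM in mTEChi and 33.8, 83.5 and 183.9 CPM in mTEClo (-5.46 ± 0.86). Tagln, a further contractile gene, had -4.59 ± 0.47. Gas1 and Boc, coreceptors of hedgehog ligands, had -5.27 ± 0.50 and -5.13 ± 1.16. The collagen VI genes Col6a2 (-4.83 ± 0.41) and Col6a1 (-4.59 ± 0.66) were among them, as were Fst, an inhibitor of activins (-4.64 ± 0.42), and Irak3, a brake on Toll-like receptor signals (-4.66 ± 0.81). Gpr139, Mgp and 4933439K11Rik had at most 1.42, 1.52 and 2.32 CPM in mTEChi and passed the filter through mTEClo, so their direction was set by the filter. The same limit holds for Boc, Synm, Myl9, Irak3 and Slc27a3, each of which had an mTEChi library without a count. The call of Gpr139 was lost without mTEChi replicate 1, 2, 3, 5 or 6 (adjusted p 0.0555 to 0.0587). Of 8 fibroblast genes 6 were tested and 0 passed in edgeR, with 1 at an unadjusted p under 0.05. DESeq2 called 1 higher in mTEClo, whereas limma voom called 2 and edgeR without mTEClo replicate 2 called 1 higher in mTEChi. The summed level of the list was 239.9 to 483 CPM in mTEChi and 95.9 to 1127 CPM in mTEClo, and the part of such cells in these genes was not tested.

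Basement membrane genes followed. Of 17 genes 16 were tested, with 10 higher in mTEClo and 1 higher in mTEChi. The laminin genes Lama3 (-2.79 ± 0.35) and Lamb3 (-2.23 ± 0.38) and the collagen IV genes Col4a1 (-2.54 ± 0.23) and Col4a2 (-1.94 ± 0.35) were higher in mTEClo. Itgb4, their hemidesmosome receptor, had -1.72 ± 0.27 and Cdh3, a cadherin of basal cells, -2.38 ± 0.33. The integrin genes Itga6 (-0.75 ± 0.20) and Itgb1 (-0.48 ± 0.15) and Dst, a hemidesmosome linker (-1.61 ± 0.29), were higher in mTEClo as well. Itga6 lost its call without mTEChi replicate 1, 2 or 4 (adjusted p 0.0507 to 0.0542), and Itgb1 without any mTEChi library or mTEClo replicate 1, 3, 4 or 5 (0.0541 to 0.111). Lama3 had 11.5, 19.0 and 41.7 CPM in mTEChi and 85.7, 151.3 and 240.3 CPM in mTEClo, without overlap. Col17a1, a hemidesmosome collagen, was the member higher in mTEChi (2.68 ± 0.79). It had an mTEClo library without a count, so it could not pass the filter through mTEClo alone. Its call was lost without mTEChi replicate 2, 3, 4, 5 or 6 or mTEClo replicate 4 or 6 (adjusted p 0.0519 to 0.0652), which left 0 members higher in mTEChi. In TXCK libraries alone 6 members were higher in mTEClo.

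Of 23 Wnt and Notch genes 21 were tested, with 6 higher in mTEClo and 0 higher in mTEChi. Notch1 had 4.57, 12.3 and 18.2 CPM in mTEChi and 33.8, 41.1 and 53.6 CPM in mTEClo, without overlap (-1.81 ± 0.32). Notch2 (-0.89 ± 0.18), the Notch ligand Jag2 (-4.38 ± 0.86), the target Hes1 (-1.34 ± 0.26), Wnt4 (-2.21 ± 0.42) and the Wnt antagonist Sfrp1 (-1.68 ± 0.23) made up the rest. Jag2, with 0 to 5.23 CPM in mTEChi, passed the filter through mTEClo, so its direction was set by the filter. The count fell to 2 in TXCK libraries alone. Without mTEClo replicate 3, 3 members were higher in mTEChi.

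Most tested genes of an interferon-stimulated list were higher in mTEClo. Of 20 genes 19 were tested, and 12 were higher in mTEClo and 0 higher in mTEChi, with a median of -1.18. Gbp3, a guanylate-binding protein, had 25.4, 29.5 and 32.6 CPM in mTEChi and 154, 235 and 392.3 CPM in mTEClo, without overlap (-3.09 ± 0.20). Ifit3, an antiviral effector, had 32.4, 51.7 and 73.4 CPM against 217, 355 and 692 CPM (-2.94 ± 0.28). Ifi44 (-2.87 ± 0.37), Isg15, a ubiquitin-like modifier (-1.99 ± 0.24), and Bst2, which tethers budding virus (-1.71 ± 0.18), ran with them. The transcription factors Irf7 (-2.06 ± 0.23) and Irf9 (-1.61 ± 0.22) were also higher in mTEClo. Oas1a, an RNA sensor (-1.18 ± 0.23), its relative Oasl2 (-0.93 ± 0.25) and the GTPases Gbp2 (-1.22 ± 0.19) and Iigp1 (-1.38 ± 0.22) ran with them too. Oasl2 lost its call without mTEChi replicate 3 or 6 (adjusted p 0.0519 to 0.0556). Usp18, the enzyme that removes ISG15, was not called (0.39 ± 0.13). The list does not hold all genes that interferon can induce, and Cxcl9 and Cxcl10, of the chemokine list, were higher in mTEChi. Without mTEClo replicate 1, 1 member was higher in mTEChi.

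Stretches of 4 promoters of these genes are shown for the same reason. Capitals mark GAAA followed after any 2 bases by GAAA on either strand, letters of the interferon-stimulated response element. Overlapping matches were marked together.
Gbp3 (chr3:142559944-142560043, plus strand): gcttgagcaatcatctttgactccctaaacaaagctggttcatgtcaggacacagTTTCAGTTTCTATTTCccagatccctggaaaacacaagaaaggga
Ifit3 (chr19:34583328-34583427, plus strand): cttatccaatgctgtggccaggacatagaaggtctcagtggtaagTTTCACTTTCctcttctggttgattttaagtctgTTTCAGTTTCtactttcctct
Isg15 (chr4:156200842-156200941, minus strand): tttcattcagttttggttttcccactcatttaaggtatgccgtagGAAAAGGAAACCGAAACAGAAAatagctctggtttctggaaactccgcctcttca
Bst2 (chr8:71537548-71537647, minus strand): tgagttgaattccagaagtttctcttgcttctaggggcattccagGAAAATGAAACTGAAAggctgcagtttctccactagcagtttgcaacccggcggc
Of the 15 list members with a RefSeq promoter, 9 held these letters in the 250 bases before the start, against 3.46% of 27025 genes and 3.31% of the tested genes matched. Not every holder was called, and the called genes Oasl2, Irf7, Irf9 and Ifi44 did not hold the letters.

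Lists of mTECs that resemble peripheral cells were read next. Of 25 tuft cell genes 23 were tested, with 8 higher in mTEClo, 0 higher in mTEChi and 15 not called. The median of the list was -1.22, and 6.24% of all genes tested were higher in mTEClo. Among members not called, Pou2f3 and Il17rb had higher means in mTEChi with either prefix. Gnat3, a taste G protein, had 1.99, 6.29 and 16.4 CPM in mTEChi and 26.1, 84.3 and 117 CPM in mTEClo (-3.17 ± 0.53). Dclk1, a tuft cell kinase (-1.92 ± 0.24), Alox5, a leukotriene enzyme (-2.78 ± 0.51), and the channel Trpm5 (-1.45 ± 0.37) were called too. Sh2d6 (-2.30 ± 0.53), the G protein regulator Rgs13 (-2.24 ± 0.54), Alox5ap (-2.20 ± 0.65) and the prostaglandin enzyme Ptgs1 (-1.54 ± 0.49) completed the 8. Alox5ap lost its call without mTEChi replicate 1, 2, 3, 5 or 6 or mTEClo replicate 2, 5 or 6 (adjusted p 0.0521 to 0.0745). Ptgs1 lost it without any mTEChi library or mTEClo replicate 4, 5 or 6 (0.0516 to 0.113). The count was 1 in DFCK libraries alone and 4 in a fit of all 24 epithelial libraries, and 1 member was higher in mTEChi without mTEClo replicate 5. Of 16 muscle genes 12 were tested and 2 were higher in mTEClo, Myog (-1.69 ± 0.36) and Myl1 (-3.08 ± 0.81). In DFCK libraries alone 0 were. The share called was 16.7%, against 16.4% of all genes called and 6.24% called higher in mTEClo. The median of the list was 0.61, toward mTEChi. The number of muscle genes higher in mTEChi went from 0 to 1 without mTEChi replicate 5 or mTEClo replicate 2, 3, 4, 5 or 6, and to 3 without mTEClo replicate 1. Of 13 microfold cell genes 3 were higher in mTEChi, Ctsh (1.90 ± 0.43), Marcksl1 (1.03 ± 0.13) and Tnfrsf11b, and 1 higher in mTEClo, Anxa5 (-0.33 ± 0.08), with 2 without mTEChi replicate 6. Of 17 neuroendocrine genes 15 were tested, and Resp18 was higher in mTEChi (1.71 ± 0.40) and Scg5 higher in mTEClo (-0.67 ± 0.18), shares near or below those of all genes (10.2% and 6.24%). Without mTEClo replicate 1, 3 or 5 the former count was 2, and the latter 3 without mTEClo replicate 1 and 2 without mTEClo replicate 2 or 6. Of 26 keratinocyte-like genes 24 were tested and 1 was called, the desmosome gene Dsc2, higher in mTEClo (-0.77 ± 0.13), again a share below that of all genes. Without mTEClo replicate 5, 2 keratinocyte-like genes were higher in mTEChi, and 1 without mTEChi replicate 4 or mTEClo replicate 2, 3, 4 or 6. The count higher in mTEChi was 4 in DFCK libraries alone, 4 in limma voom and 4 without mTEClo replicates 3, 5 and 6. None of 14 ciliated cell genes passed in edgeR, with 1 at an unadjusted p under 0.05. DESeq2 called 1 higher in mTEClo, whereas limma voom called 3 and edgeR without mTEClo replicate 2 or 6 called 1 higher in mTEChi.

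The cell cycle list was called at a share near that of all genes. Of 30 genes 29 were tested, with 5 higher in mTEClo, 1 higher in mTEChi and 23 not called. That is 20.7% of the members tested, against 16.4% of all genes tested. Of all genes tested, 6.24% were higher in mTEClo and 10.2% higher in mTEChi, so the calls of the list leaned toward mTEClo. The replication helicase genes Mcm2 (-1.31 ± 0.31), Mcm3 (-1.38 ± 0.38), Mcm6 (-1.36 ± 0.34) and Mcm7 (-1.52 ± 0.33) and the mitotic cyclin Ccnb2 (-1.54 ± 0.33) were higher in mTEClo. In DFCK libraries alone none of the list was higher in mTEClo in edgeR. Mcm3 lost its call without mTEChi replicate 4 (adjusted p = 0.0558). The inhibitor Cdkn1a was higher in mTEChi (0.81 ± 0.25), a call lost without mTEChi replicate 2, 4, 5 or 6 or mTEClo replicate 1, 2 or 3 (adjusted p 0.0563 to 0.0911), and in all but 1 of these fits no member was higher in mTEChi.

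Markers of other cells were read beside these results. Of 10 cortical TEC genes 3 were higher in mTEChi, Tbata (1.67 ± 0.12), Ly75 (2.47 ± 0.54) and Ccl25, and 3 higher in mTEClo, the protease gene Prss16 (-0.97 ± 0.26), Cxcl12 and Ctsl. Prss16, which defines cTEC, averaged 15065 CPM there and had 61.3, 69.6 and 84.0 CPM in mTEChi and 65.7, 126 and 207 CPM in mTEClo, with overlap. Of 13 B, myeloid and dendritic cell genes 10 were tested and 5 were higher in mTEChi. These were Lyz2 (2.06 ± 0.48), Cd79a (6.01 ± 1.42) and, with no count in mTEClo, Ms4a1, Flt3 and Xcr1, at least 199-, 253- and 104-fold higher. Those 3 genes, and Cd79a with counts in 1 of 6 mTEClo libraries, passed the filter through mTEChi, so their direction was set by the filter. The number was 8 without mTEClo replicate 3 or without replicate 5. The summed level of the list was 514 to 753 CPM in mTEChi and 38.2 to 298 CPM in mTEClo, and Itgax and Siglech were at 0 in mTEClo as well. CD45- cells were sorted, and the part of such cells in the mTEChi genes was not tested. Thymocyte genes summed to 66.2 to 110.3 CPM in mTEChi and 0 to 49.3 CPM in mTEClo, and 0 of the 6 tested passed in edgeR, with 0 at an unadjusted p under 0.05, 5 in DESeq2 and 1 in limma voom. In edgeR 1 to 4 passed toward mTEChi without mTEChi replicate 2 or 5 or any mTEClo library.

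Hemoglobin genes Hba-a1, Hba-a2, Hbb-bs and Hbb-bt were higher in mTEClo (4 of 5 erythroid genes, -2.52 to -2.67), though libraries overlapped. Their summed level with Alas2 was 171 to 1160.0 CPM in mTEChi and 73.9 to 5189 CPM in mTEClo, and reads cannot be divided surely between the copies. The count fell to 0 without mTEChi replicate 1, 2, 3 or 5, to 1 without mTEClo replicate 2 and to 2 without mTEChi replicate 4, and it was 0 in DFCK libraries alone. Of 16 dissociation genes only Junb was called, higher in mTEChi (0.63 ± 0.13), and without mTEClo replicate 1, 2 were higher in mTEClo. Of 5 endothelial genes 2 were tested and 0 passed in edgeR, DESeq2 or limma voom, with 0 at an unadjusted p under 0.05. Their list summed to 4.15 to 35.9 CPM in mTEChi and 3.52 to 72.95 CPM in mTEClo.

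Unfractionated mTEC libraries of the same age (6) gave a description of both fractions together. Their levels and those of cTEC were scaled in a separate TMM run from those of mTEChi and mTEClo. The shares and positions below thus compare values on different scales, and how far this moved them was not tested. The mTEC mean lay between the means of mTEChi and mTEClo for 85.4% of the genes higher in mTEChi and 88.4% of those higher in mTEClo. The median position, on a log2(CPM + 1) scale from 0 at mTEClo to 1 at mTEChi, was 0.831 for the first group and 0.664 for the second. Aire averaged 190.8 CPM in mTEC, Csn2 1390.1 CPM and Ccl21a 4249 CPM. In cTEC (6 libraries) the mean exceeded that of mTEChi for 85.1% of the genes higher in mTEClo, 6.29% of those higher in mTEChi and 44.5% of all genes tested. These sets were chosen with the mTEChi values, so no test was made. Over all genes tested, the median Spearman correlation of mTEClo libraries was 0.729 with mTEC (0.590 to 0.800) and 0.748 with cTEC (0.691 to 0.839), ranges that overlap, and that of mTEChi libraries was 0.846 with mTEC and 0.648 with cTEC.

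Single cells of WT newborns (P0, 3 libraries) gave the epithelial subtype with the highest mean CPM of each gene, at an earlier age and with the authors' subtype labels. UMIs were summed per subtype and library. Among genes with at least 30 UMIs, mature medullary TECs (MmTEC) had the highest mean for 66% of 1030 genes higher in mTEChi, 2.89% of 934 genes higher in mTEClo and 19.3% of 12341 genes tested. The genes higher in mTEClo were spread. Intertypical TECs (ItTEC) had the highest mean for 19.7% of them against 10.2% of all genes tested, perinatal cortical TECs (PcTEC) for 13.1% against 6.73%, and neural TECs (nTEC) for 23.6% against 19.6%. Post-AIRE mTECs (PAmTEC) had it for 13.9% against 19.3%, mature cortical TECs for 13.6% against 11.2% and proliferating TECs for 13.3% against 13.8%. The nTEC cells numbered 6, 17 and 65 per library and the PAmTEC cells 11, 13 and 22, so the shares of both rest on few cells. The sTEC and TlTEC subtypes had too few cells to enter. Ccl21a averaged 5694 ± 1365 CPM in ItTEC and 462 ± 238 CPM in MmTEC (SD, n = 3). Aire averaged 1834 ± 670 CPM in MmTEC and 90.7 ± 57.5 CPM in ItTEC (SD, n = 3). Ifit3 averaged 160.1 ± 85.2 CPM in ItTEC and 11.6 ± 8.7 CPM in MmTEC (SD, n = 3).

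**Figure D5:**
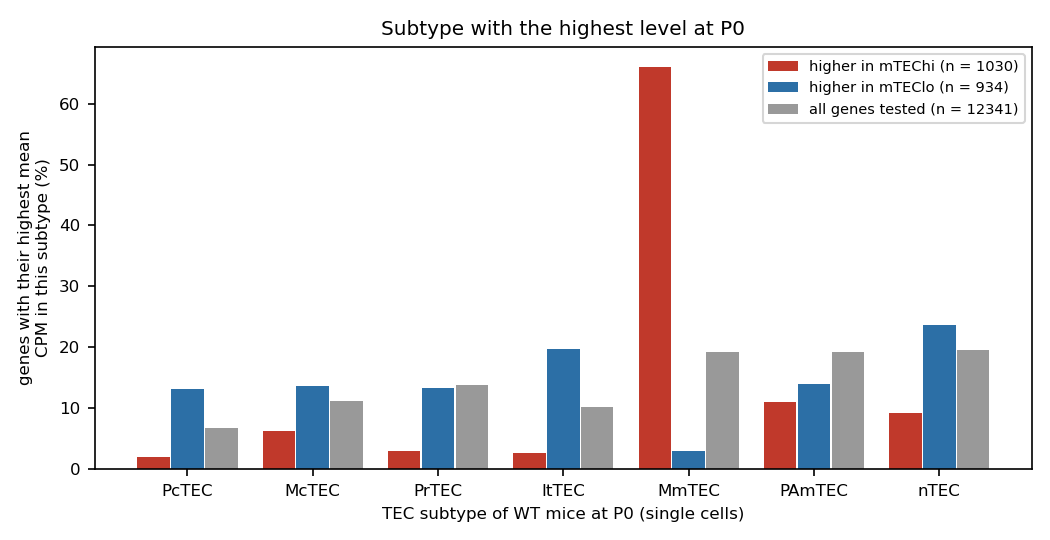
Percent of genes with their highest mean CPM in each of 7 TEC subtypes of WT newborns, for genes higher in mTEChi (1030, red), higher in mTEClo (934, blue) and all tested (12341, gray). MmTEC takes 66% of the red and 2.89% of the blue genes.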

How the data were processed

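Bulk RNA-seq was made of sorted populations of WT thymus, and 12 libraries entered the comparison. The authors deposited raw counts of reads for each Ensembl ID. The submitters' processing notes name STAR 2.5.3a, HTSeq and Cell Ranger 3.1.0 with the builds mm10 and GRCh38, without saying which served the bulk data, and whether counting used strand is not given in the sources used here. Rows of no gene, 12.0 to 15.6% of counts, were left out, and 60 further bulk columns were not used. Of 39179 Ensembl IDs 37607 received a symbol, and the rest held 0.712% of counts. The single-cell counts are UMI counts per gene and cell, deposited by the authors with subtype labels. The study's methods describe doublet removal with DoubletFinder for its single-cell data, and no further doublet calling was done here.

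Counts were tested with edgeR 4.0.16 in R 4.3.3 (filterByExpr, TMM factors, quasi-likelihood test, Benjamini-Hochberg adjustment over 15443 genes, no covariate), after the procedure was tested on simulated data. SE is the fold change over the square root of F. A gene without a count in some library of the lower population could not pass the filter through that population alone. This holds for more genes than those marked in the text. Per-library measures were compared with exact permutation tests in Python 3.11.15. Single-cell UMIs were summed per subtype and library with at least 5 cells. Alternatives were other scaling and filters, the label prefix, a replicate block, all 24 epithelial libraries, leaving out libraries, DESeq2 1.42.0 and limma 3.58.1. Named genes are members of the lists and, in each direction, the 15 largest fold changes among called genes with a symbol, a mean of at least 10 CPM in the higher population and no overlap. The comparison and lists were chosen with earlier results of these data known, and some list members are counted but not reported by name here. Folds of genes without a count in mTEClo were taken against a floor of 3 counts over the group. The words at least refer to this floor, which leaves out the spread between libraries.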

Additional observations from a re-analysis of the deposited data

Results flagged for a closer look

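In 348 groups of 6 libraries, 32 had a single library apart from the other 5 by Dixon's criterion, which chance does for about 1 in 20 groups. Values are levels in CPM in the library set apart. In mTEChi replicate 1 this held for Dnmt3l (101.1), Cdx1 (518), Traf1 (56.1), 4933439K11Rik (2.32), Hes1 (28.7), Ifi44 (38.6), Irf7 (65.6), Marcksl1 (2055) and Junb (719.6). In mTEChi replicate 2 it held for Eya1 (37.3), Mgp (1.52) and Psg23 (83.7), in replicate 4 for Gpr139 (1.42) and Col6a1 (57.1), in replicate 5 for Wnt4 (5.82) and Zp3 (15.99) and in replicate 6 for Lypd8 (312) and H2-DMa (481). In mTEClo replicate 1 it held for H2-Aa (6809), H2-Ab1 (26909), Ccl19 (102), Usp18 (849) and H2-D1 (10816) and for the mitochondrial share of counts (0.867%). In mTEClo replicate 3 it held for Ackr4 (45.2), in replicate 4 for Trpm5 (117), in replicate 5 for Dnmt3l (17.5), Cxcl13 (66.99) and Cd79a (0.799) and in replicate 6 for Amelx (1.62), Sftpb (1.498) and Vil1 (45.3).

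The difference between the populations differed between the label prefixes for 81 genes in edgeR's test of the interaction (adjusted p under the threshold), with a negative term (TXCK minus DFCK) for 68 and a positive one for 13. Among the genes named, the term was -2.07 for Aire, -10.15 for Cd86 and 1.97 for Cdh3. The value of Cd86 rests on DFCK libraries of mTEClo without a count.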

How the results depend on the processing

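No gene called in the comparison changed sign under the alternatives run, and of 177 called genes on the lists or among the 30, 91 kept their call under all of them. The numbers of calls moved more. Without a scaling factor 1474 genes were higher in mTEClo. Without a filter 3809 were called, 2841 of them higher in mTEChi. TXCK libraries alone gave 414 higher in mTEClo, and a fit of all 24 epithelial libraries 2457 higher in mTEChi. DESeq2 called 5153 genes (3592 higher in mTEChi, 1561 higher in mTEClo). The next 2 alternatives were chosen after seeing the data. Limma voom with quality weights per population called 4550 (3456 higher in mTEChi), and a fit without mTEClo replicates 3, 5 and 6 called 4383 (3257 higher in mTEChi). Leaving out 1 library gave 2158 to 3421 calls, 1386 to 2315 higher in mTEChi and 772 to 1106 higher in mTEClo, with more calls whenever an mTEClo library was left out. A replicate block from the library numbers gave 2345 calls (1638 and 707), of which 1768 were calls without it. The library numbers run in the same steps in the 2 populations, with the prefixes in the same order (S146 and S170, S148 and S172). The block joins libraries matched in this way. Deviations of matched libraries correlated at 0.0036 to 0.071, and 4 of 6 mTEChi libraries correlated best with their match. These values do not settle whether the libraries are pairs, and the labels do not say. The main test has no block, so it would ignore such a pairing. Under the block 25 of the 177 calls were lost, and 4 tuft cell genes were called. Ciita, not called, had fold changes of -0.15 without a scaling factor, -0.12 in TXCK libraries alone, and -0.036 to 0.10 when 1 library was left out, with -0.0046 without mTEChi replicate 3. Without mTEClo replicates 3, 5 and 6, 10 B, myeloid and dendritic cell genes and 7 thymocyte genes were higher in mTEChi, and 0 hemoglobin genes were higher in mTEClo in edgeR. The differences in genes detected, top-gene share and mitochondrial and ribosomal shares kept their direction and side of the threshold. The causes of these moves were not tested.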
